A study of Mus musculus with 8 samples.

Results

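The mitochondrial ribosomal proteins are the protein subunits of the ribosome that works inside mitochondria. They were described here at embryonic day 9.5 in migrating primordial germ cells, from which sperm and eggs descend. Members were the genes whose symbol is Mrpl or Mrps followed by a number, with or without a closing letter, and that had an array probe assigned to 1 gene only. The rule gave 77 members of 19938 genes, 48 with Mrpl symbols (large subunit) and 29 with Mrps symbols (small subunit). The reference table holds 78 such symbols, and the remaining one, Mrpl53, was not analysed here. All 77 members were tested, since no filter on low values was applied.

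The arrays measured germ cells from 4 mutant embryos, homozygous for the Y324C allele of Ror2, a receptor of the ligand Wnt5a, and from 4 wild-type (WT, Ror2+/+) embryos. Each embryo was hybridised to 1 array. Mutants 1 to 4 were at 24, 22 to 23, 23 and 21 to 22 somites, and WT 1 to 4 at 25, 25, 22 and 21. Both parents were heterozygous for the allele on a mixed strain background, and the fathers also carried the Oct4-ΔPE reporter on both copies (Tg/Tg), so that every embryo had the reporter. GFP-positive cells were sorted from the trypsin-digested posterior part of single embryos, and the allele was present in all cells of the mutant embryos, not in germ cells alone.

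Mitochondrial ribosomes translate the few proteins encoded by mitochondrial DNA, all of them core subunits of the respiratory chain and ATP synthase. Their RNAs are encoded in mitochondria, but all of their proteins are made in the cytosol from nuclear genes and imported. Some have a bacterial counterpart, and others exist only in mitochondria. Subunit names do not always follow location: Mrps30 and Mrps18a are parts of the large subunit, and Mrps36 is now known as a part of the alpha-ketoglutarate dehydrogenase complex.

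Promoter windows were printed for 3 members on which the comparisons turn: Mrps31 had the smallest p for genotype, Mrps18b was the only member whose mutant and WT values did not overlap, and Mrpl32 had the smallest p for somite number. Each window runs 5′ to 3′ from 250 bases before the transcription start to 50 after it, from RefSeq on GRCm38.p6. Capitals mark matches, on either strand, to the core of ETS factors such as GABPA (CCGGAAG), of NRF1 (GCATGCGC) or of YY1 (AAGATGGC), factors known to bind promoters of nuclear genes for mitochondrial proteins.
Mrps31 (chr8:22411090-22411389, plus strand): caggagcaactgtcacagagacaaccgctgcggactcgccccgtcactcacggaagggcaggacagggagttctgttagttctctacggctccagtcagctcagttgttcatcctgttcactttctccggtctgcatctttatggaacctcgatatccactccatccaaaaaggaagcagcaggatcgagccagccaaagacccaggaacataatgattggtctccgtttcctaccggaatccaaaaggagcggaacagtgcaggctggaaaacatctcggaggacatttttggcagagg
Mrps18b (chr17:35916391-35916690, minus strand): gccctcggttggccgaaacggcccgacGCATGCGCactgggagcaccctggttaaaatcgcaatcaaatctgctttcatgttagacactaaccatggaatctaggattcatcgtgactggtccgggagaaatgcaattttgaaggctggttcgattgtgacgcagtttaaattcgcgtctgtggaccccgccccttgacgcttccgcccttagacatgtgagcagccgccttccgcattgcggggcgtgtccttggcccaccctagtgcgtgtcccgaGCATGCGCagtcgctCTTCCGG
Mrpl32 (chr13:14612988-14613287, minus strand): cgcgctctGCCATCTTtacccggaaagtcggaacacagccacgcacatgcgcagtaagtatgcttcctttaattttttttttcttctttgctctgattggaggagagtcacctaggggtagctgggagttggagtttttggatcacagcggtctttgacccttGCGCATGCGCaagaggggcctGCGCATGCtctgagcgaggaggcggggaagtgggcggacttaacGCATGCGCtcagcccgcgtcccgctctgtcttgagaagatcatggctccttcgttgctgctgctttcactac

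The Mrpl32 window held matches to the NRF1 and YY1 cores, that of Mrps18b held 2 NRF1 matches and 1 ETS match, and that of Mrps31 held none of the 3 cores. Of the members, 68 had a window in the table. The ETS core occurred in 25 of these (36.8%), against 13.6% of 15563 tested genes with a window. Of its 29 matches, 24 lay within 60 bases of the start. The windows end 50 bases after the start, and match positions were not compared with those in other genes. The YY1 core occurred in 12 members (17.6%), against 3.77% of tested genes. The NRF1 core occurred in 8 members (11.8%), against 4.29%. At least 1 of the 3 cores occurred in 37 members (54.4%), against 19.8% of tested genes, and no window held overlapping matches to different cores. By contrast, TATAAA occurred in 5 members (7.35%), against 13.6%, and the E-box CACGTG in 5 (7.35%), against 9.52%. Cytosolic ribosomal proteins held the ETS core in 18 of 47 windows (38.3%) and the YY1 core in 2. Complex I subunits of the respiratory chain held the ETS core in 4 of 31 windows (12.9%) and the YY1 core in 7 (22.6%). At least 1 of the 3 cores occurred in 23 of 47 cytosolic ribosomal proteins (48.9%) and in 14 of 31 complex I subunits (45.2%). These letter matches describe the windows and show no binding. The 37 members with at least 1 of the 3 cores had a median difference, mutant minus WT on the log2 scale, of 0.11. It was 0.057 in the 31 with none of them. For the YY1 core alone the order was the other way, 0.043 with it and 0.077 without. Whether the cores and the differences go together was not tested.

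The mutation changes a codon of Ror2, so a Ror2 probe would not check the genotype. The germ cell markers Pou5f1 (Oct4) and Dppa3 averaged 11.24 ± 0.12 and 11.41 ± 0.11 in mutants and 11.13 ± 0.18 and 11.27 ± 0.23 in WT (log2, SD, n = 4 each). WT 3 stood apart: its mean over 14 germ cell markers was 10.02, against 10.20 to 10.34 in the other arrays. The erythroid markers, 8 of 10 listed ones measured, averaged 5.55 in WT 3, against 4.89 to 5.10 in mutants and 4.85 to 5.27 in the other WT arrays. The 10 macrophage markers averaged 5.32 in WT 3, against 4.80 to 5.06 in mutants and 4.89 to 5.09 in the other WT arrays. The 8 trunk mesenchyme markers averaged 5.50 in WT 3, against 5.06 to 5.28 in mutants and 4.97 to 5.29 in the other WT arrays. The 8 hindgut markers were highest in mutant 4 (6.59) and WT 4 (6.67), with 6.10 to 6.26 in the other mutants and 6.02 to 6.39 in the other WT arrays. All 8 erythroid markers were lower on average in mutants (median difference -0.25), as were 8 of the 10 macrophage markers (median -0.095). Of all 19938 genes, 11036 were lower in mutants, and so were 4 of 8 hindgut, endothelial and trunk mesenchyme markers each. Without WT 3 the difference in list mean moved from -0.23 to -0.11 for erythroid and from -0.14 to -0.057 for macrophage markers. Xist, transcribed from the inactive X chromosome of female cells, set WT 3 and mutant 4 apart from the other arrays, with 6.31 in mutant 4 and 7.07 in WT 3, against at most 4.11 in the other mutants and at most 3.92 in the other WT arrays. In sorted cells in bulk, fewer germ cells and less RNA per germ cell cannot be told apart. Array medians over all genes ran from 5.51 to 5.73. With 8 arrays, precision is limited by their number.

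The members were measured well above the centre of the arrays in every embryo. Their mean log2 values over the 8 arrays ran from 6.62 for Mrps23 to 11.04 for Mrpl42, with a median of 8.35, where the median of all genes was 5.61. In each array at least 76 of the 77 members lay above the median of that array. The exceptions were Mrps26 in mutant 3 (5.48) and Mrps23 in WT 2 (5.32). Probes differ in affinity, so the order of members by value is not an order of transcript abundance.

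Averaged over the 77 members, the log2 value was 8.40, 8.34, 8.42 and 8.25 in mutants 1 to 4, and 8.47, 8.33, 8.10 and 8.31 in WT 1 to 4. The 2 groups overlapped, with the highest and the lowest value both in WT. The mean was 8.36 ± 0.08 in mutants and 8.30 ± 0.15 in WT (SD, n = 4 each), a difference of 0.052. Without WT 3 the WT mean was 8.37 and the difference -0.015. WT 3 was the lowest array for 23 of the 77 members and mutant 4 for 18. Among the 9969 genes above the median level, 20.7% were lowest in WT 3 and 14.8% in mutant 4.

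The mean of the members was set beside the spread of each array, the SD over all genes. This SD was 1.90, 1.94, 1.94 and 1.83 in mutants 1 to 4, and 1.95, 1.86, 1.77 and 1.82 in WT 1 to 4. WT 1 had both the widest distribution and the highest member mean, and WT 3 both the narrowest and the lowest. The 3 arrays of smallest SD, WT 3, WT 4 and mutant 4, also had the 3 lowest member means. Expressed in units of this SD above the array median, the members averaged 1.45 ± 0.03 in mutants and 1.45 ± 0.07 in WT, with 1.34 in WT 3 and 1.42 to 1.52 in the other 7 arrays. The part of array spread in the member values was not tested, nor was that of the erythroid, macrophage and trunk mesenchyme markers or of Xist, which also set WT 3 apart.

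**Figure D1:**
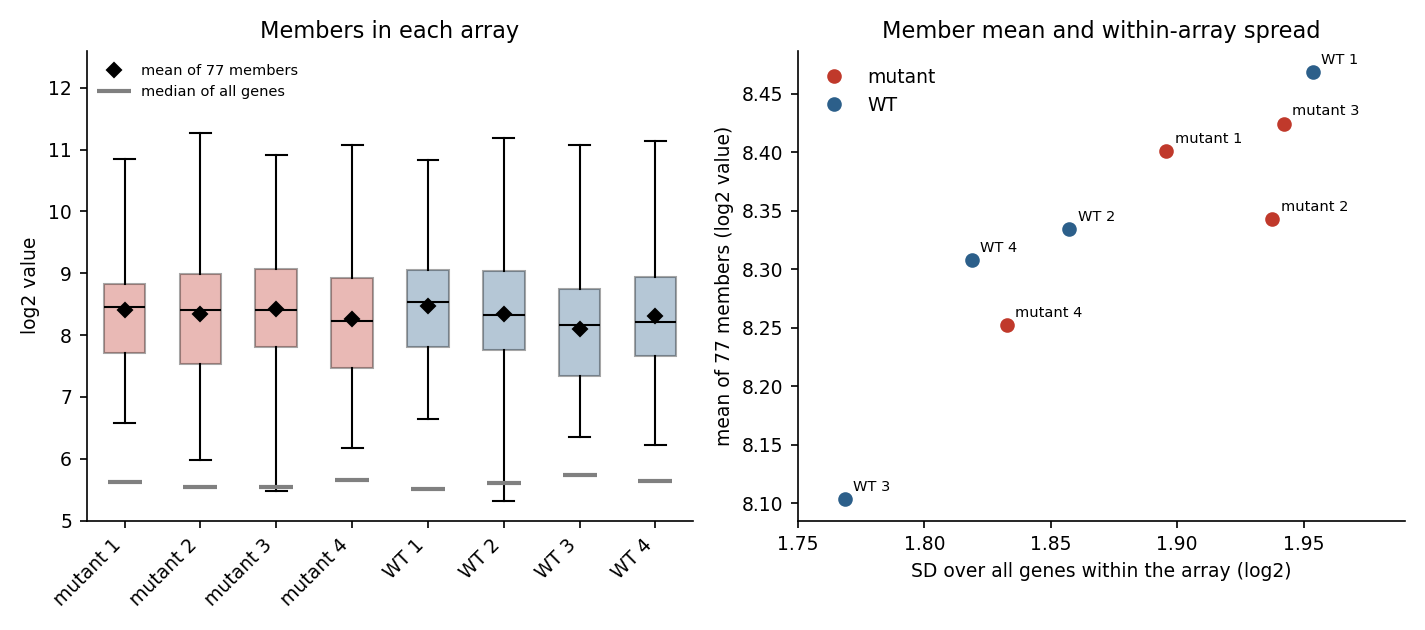
Left, log2 values of the 77 members in each array (box, quartiles; whiskers, lowest and highest; diamond, mean; grey dash, median of all genes). Right, mean of the members against the SD over all genes of the array, with WT 3 lowest on both (8.10 and 1.77) and WT 1 highest on both (8.47 and 1.95).

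The main comparison asked whether germ cells of mutant embryos differ from those of WT embryos in transcripts of these subunits. No member passed the limma test over all genes, where the smallest adjusted p of a member was 0.973, and 0 of 19938 genes passed (0%). At an unadjusted p under 0.05, Mrps31 and Mrpl23 were higher in mutants and Mrps18b and Mrps10 lower. These are 2 of 77 members in each direction (2.60%), against 2.72% of all genes higher and 1.96% lower. All 4 mutant values lay above all 4 WT values for 0 members, against 1.08% of all genes, and below them for 1 member, Mrps18b, against 1.44%. The members' shares were thus near those of all genes.

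Across the list, 46 of the 77 members (59.7%) had a positive difference, mutant minus WT, and the median was 0.068 on the log2 scale. Over all genes 44.6% were positive with a median of -0.024, and over the 9969 genes above the median level 57.4% were positive with a median of 0.041. Single differences ran from -0.59 to 0.82. The 95% interval lay within 1 on the log2 scale, up or down, for 70 members and within 0.5 for 17. The median SD within groups was 0.31 for members, 0.28 for genes above the median level and 0.24 for all genes.

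**Figure D2:**
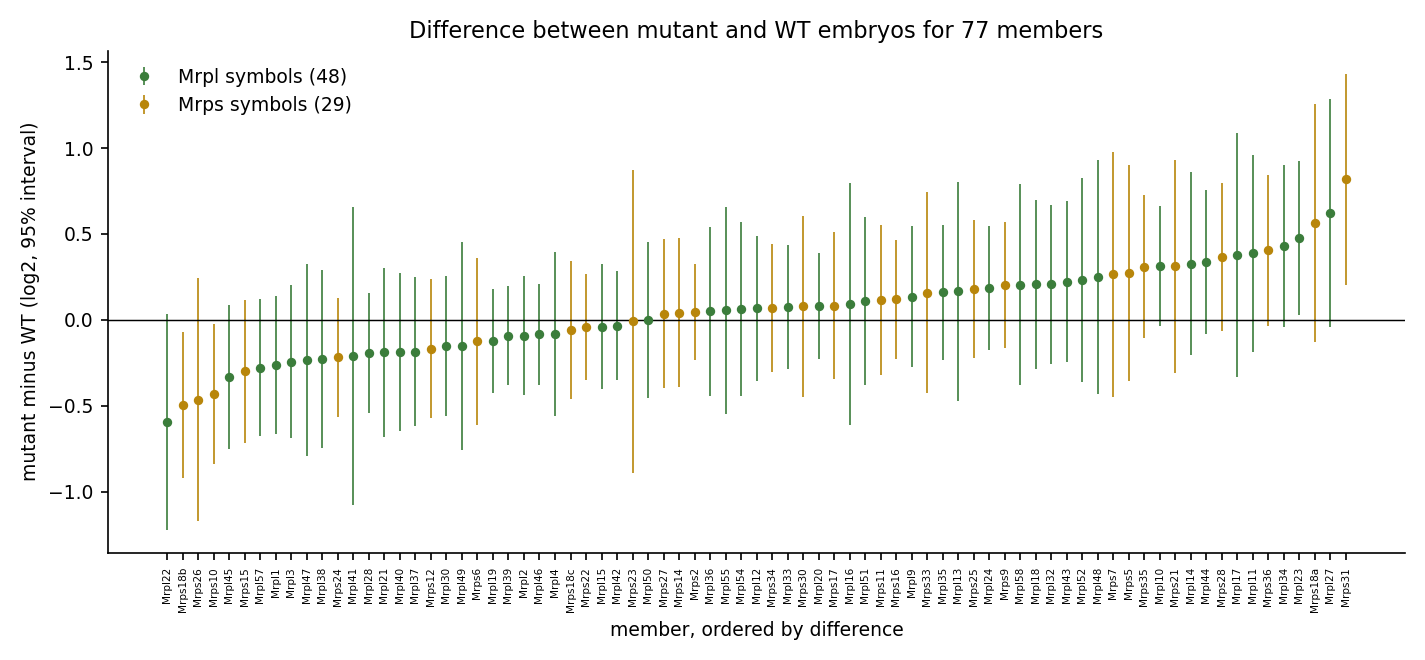
Difference between mutant and WT embryos (log2, 95% interval from limma) for each of the 77 members, ordered by size and coloured by symbol. The intervals of Mrps31, Mrpl23, Mrps18b and Mrps10 exclude 0, and Mrps31 (0.82) and Mrpl22 (-0.59) lie at the ends.

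Among members with the smallest p that were higher in mutants, Mrps31, a small-subunit protein found only in mitochondria, came first. Its log2 values were 8.61, 8.20, 8.57 and 9.20 in mutants and 8.20, 8.33, 7.19 and 7.59 in WT. The lowest mutant lay just below the 2 highest WT embryos. The difference was 0.82 ± 0.28 (SE), or 1.76-fold, with an interval from 0.20 to 1.43 and a limma adjusted p of 0.973. On leaving out 1 array it ran from 0.61 to 0.98, and without both WT 3 and mutant 4 it was 0.42.

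Mrpl23, a large-subunit protein with a bacterial counterpart at the exit of the peptide tunnel, had 10.85, 10.10, 10.24 and 10.49 in mutants and 10.31, 9.91, 9.58 and 9.98 in WT. Only WT 1 reached into the mutant range. The difference was 0.48 ± 0.20 (SE), and it was 0.33 without WT 3 and mutant 4. Its second probe gave 0.49 ± 0.20. Mrpl27, whose bacterial counterpart lies near the peptidyl transferase centre, differed by 0.62 ± 0.30, with WT values spread from 6.44 in WT 3 to 7.87, and by 0.36 without WT 3. Its second probe gave 0.41 ± 0.24.

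Mrps36 had 7.98, 8.06, 7.86 and 8.76 in mutants and 7.86, 7.87, 7.53 and 7.79 in WT, and differed by 0.40 ± 0.20 (SE). Mutant 4 was the highest of the 8 embryos, and without it the difference was 0.20. The large-subunit protein Mrpl34 differed by 0.43 ± 0.21, with 8.88 in mutant 1 and 8.43 to 8.49 in the other mutants, against 7.55 in WT 3 and 8.08 to 8.54 in the other WT embryos. Without WT 3 the difference of Mrpl34 was 0.23. Mrpl10, which by its bacterial counterpart forms the base of the flexible stalk, differed by 0.31 ± 0.16, and the groups overlapped.

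Among those lower in mutants, Mrps18b had 8.53, 9.30, 9.06 and 9.21 in mutants and 9.35, 9.32, 9.60 and 9.82 in WT. The highest mutant value was close to the lowest WT value, at 9.30 and 9.32. The difference was -0.49 ± 0.19 (SE), with an interval from -0.92 to -0.07 and a limma adjusted p of 0.973. Mrps10, a small-subunit protein with a bacterial counterpart, had 6.57, 5.98, 6.29 and 6.85 in mutants and 6.93, 6.68, 6.91 and 6.90 in WT. Mutants 2 and 3 were the lowest, and mutant 4 lay within the WT range. The difference was -0.43 ± 0.18, and it was -0.28 without mutant 2.

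Mrpl22, which lines the peptide tunnel in bacteria, had 8.11, 8.28, 7.95 and 6.89 in mutants and 8.20, 8.25, 8.32 and 8.83 in WT. Mutant 4 was far below the other embryos. The difference was -0.59 ± 0.28 (SE), and it was -0.29 without mutant 4. Mrpl45, a protein of the tunnel exit found only in mitochondria, differed by -0.33 ± 0.19, and by -0.21 without WT 1. Mrps15 differed by -0.30 ± 0.19, and by -0.13 without WT 4. Mrpl57 differed by -0.28 ± 0.18, by -0.16 without WT 2 and by -0.44 without WT 3. The groups overlapped for all 3 genes.

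**Figure D3:**
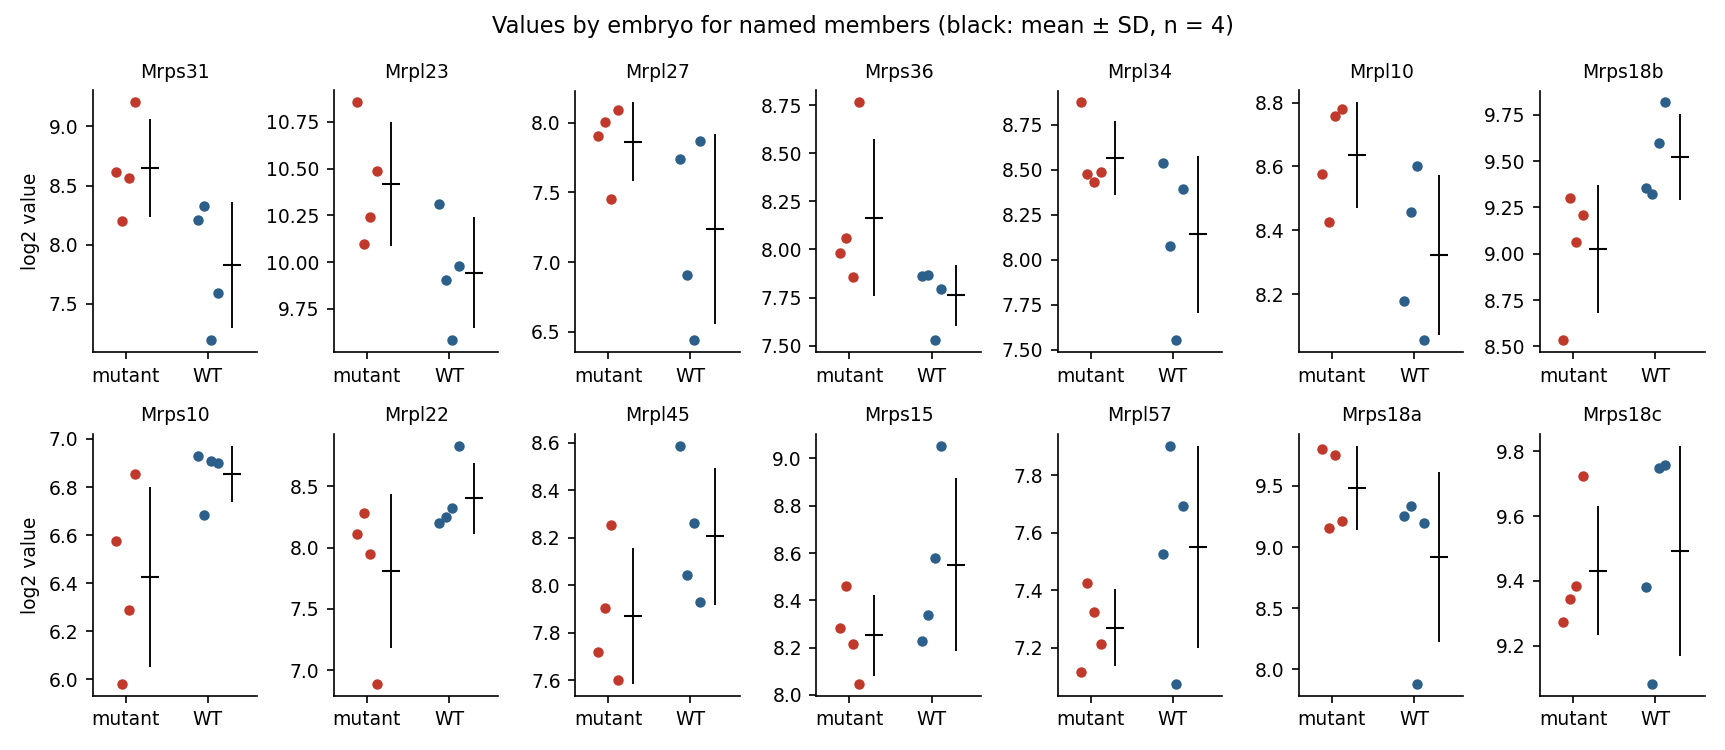
Log2 values of each embryo for the named members of the genotype comparison and for all 3 Mrps18 paralogs, mutants left and WT right, with mean ± SD (n = 4) in black. Mrps18b alone has no overlap, with mutants up to 9.30 and WT from 9.32.

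The 3 Mrps18 genes are paralogs related to a single bacterial protein, and their products take different places in the ribosome. Mrps18a belongs to the large subunit, and Mrps18b and Mrps18c to the small. Mrps18a had 9.81, 9.16, 9.76 and 9.21 in mutants and 9.26, 9.34, 7.88 and 9.20 in WT. WT 3 lay far below the other embryos, which ranged from 9.16 to 9.81. The difference was 0.57 ± 0.31 (SE), and it was 0.22 without WT 3. Mrps18c had 9.27, 9.34, 9.38 and 9.72 in mutants and 9.38, 9.08, 9.75 and 9.76 in WT, with full overlap. Its difference was -0.061 ± 0.18, and its direction turned without WT 3 (0.024) or WT 4 (0.027). Mrps18a and Mrps18b thus had differences of opposite sign, and no test was made between them.

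Grouped by origin, the members with a bacterial counterpart in the large subunit had 19 of 30 differences above 0 (median 0.078). Large-subunit proteins found only in mitochondria had 10 of 20 above 0 (median -0.016). In the small subunit, 10 of 16 with a bacterial counterpart were above 0 (median 0.064), and 7 of 11 of those found only in mitochondria (median 0.070). These classes use the location of the protein, with Mrps30 and Mrps18a in the large subunit. Mrps18a and Mrps18b, relatives of a bacterial protein in other places, and Mrps36 were counted among those found only in mitochondria. Mrpl12, the stalk protein that also binds the mitochondrial RNA polymerase, had 9.52, 9.06, 9.44 and 8.77 in mutants and 9.28, 8.98, 8.90 and 9.35 in WT. Its groups overlapped fully, with a difference of 0.068 ± 0.19 (SE) that turned to -0.019 after quantile normalization.

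For 8 members the platform held 2 probes, and the probe of higher mean was used. Positions of the probes were not used here, so whether a probe also detects a processed copy of its gene was not tested. In a fit over probes, the pair disagreed in the sign of mutant minus WT for Mrps5 and Mrpl47. Mrps5 gave 0.27 ± 0.29 (SE) from the probe used and -0.056 ± 0.20 from the other, and Mrpl47 gave -0.23 ± 0.26 and 0.045 ± 0.27. Mrpl51 differed by 0.11 ± 0.22 on the probe used and by 0.57 ± 0.21 on the other, and Mrps36 by 0.40 ± 0.20 and 0.63 ± 0.21. With the mean of the probes in place of the brighter one, an unadjusted p under 0.05 was reached by 4 members higher in mutants and by 2 lower.

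The genotype shift of the list depended on how the arrays were scaled. With each array centred on its median and scaled to a common SD, 42 members were above 0 with a median of 0.016 (all genes, 51.5% above 0). After quantile normalization, which gives all arrays the same distribution, 36 were above 0 with a median of -0.0080 (all genes, 47.4% above 0). By unadjusted p under 0.05 there was then 1 member higher in mutants and 5 lower (all 19938 genes, 518 and 449). Median centring gave 48 members above 0 with a median of 0.10 (all genes, 52.1%). With the array SD as a covariate, 34 were above 0 with a median of -0.037 (all genes, 53.5%). Without WT 3, on the deposited values, 38 were above 0 with a median of -0.0079 (all genes, 50.2%). Without both WT 3 and mutant 4, 44 were above 0 with a median of 0.032 (all genes, 46.7%). The direction of the median is therefore not fixed by these data.

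**Figure D4:**
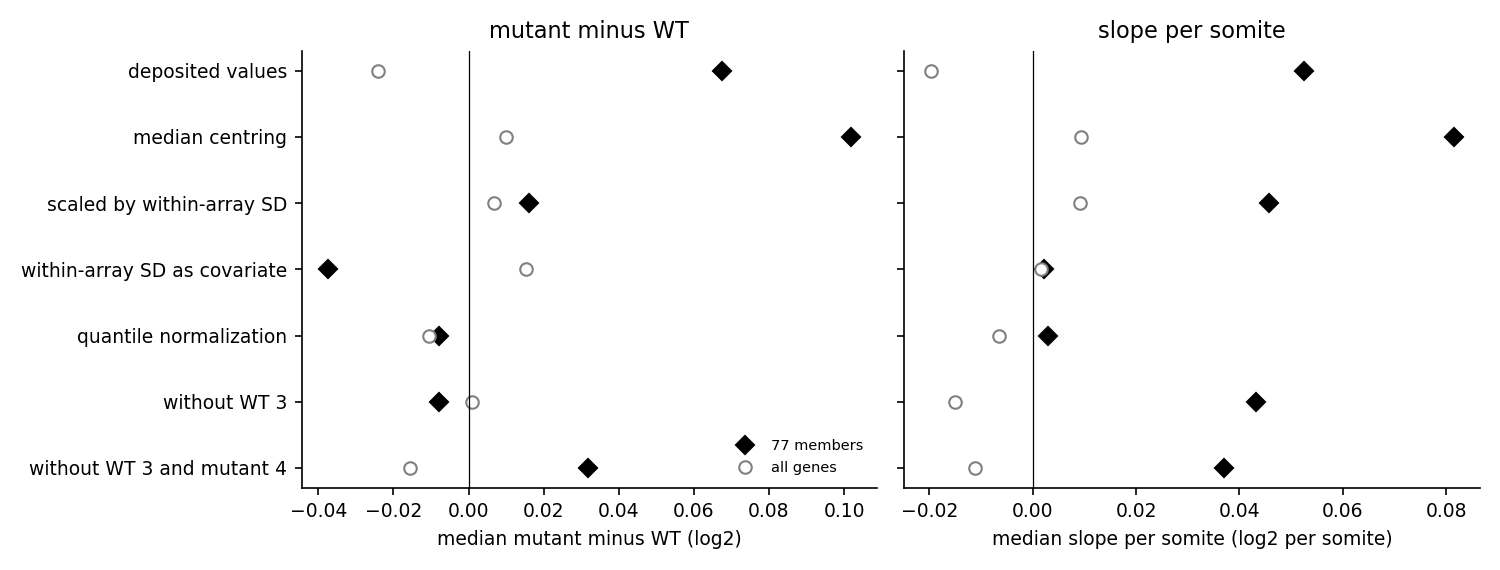
Median over the 77 members (diamonds) and over all genes (open circles) of the genotype difference (left, log2) and of the slope (right, log2 per somite) under 7 treatments of the arrays. The genotype median of the members ranges from -0.037 to 0.10, and both medians are near 0 after quantile normalization (-0.0080 and 0.0030).

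The embryos also differed in stage, which somite number counts, and a limma model with genotype gave each gene a slope per somite. No member passed over all genes (smallest adjusted p 0.323), and 0 of 19938 genes passed (0%). At an unadjusted p under 0.05, 10 members had positive slopes (13.0%), against 5.02% of all genes, and 3 had negative slopes (3.90%), against 4.72%. Of the 77 members, 56 (72.7%) had a positive slope, with a median of 0.052 on the log2 scale per somite. Over all genes 40.5% were positive with a median of -0.020, and over the 9969 genes above the median level 58.6% with a median of 0.019. Of these 9969 genes, 901 had positive and 314 negative slopes at an unadjusted p under 0.05.

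These counts also moved with scaling. After quantile normalization 42 members were above 0 with a median of 0.0030. At an unadjusted p under 0.05, 4 then had positive and 5 negative slopes (all 19938 genes, 811 and 809). Centring each array on its median and scaling it to a common SD left 52 above 0, with 7 positive and 5 negative (all genes, 1322 and 453). Median centring gave 64 above 0, with 15 positive and 1 negative (all genes, 1526 and 420). It also raised the positive share of all genes at an unadjusted p under 0.05 to 78.4%, against 51.5% on deposited values. With the array SD as a covariate 39 were above 0, with a median of 0.0021. The 2 WT embryos of 25 somites had array SDs of 1.95 and 1.86, and those of 22 and 21 somites 1.77 and 1.82, so among WT arrays spread and stage moved together.

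By subunit, 40 of 48 members with Mrpl symbols had a positive slope (median 0.063), against 16 of 29 with Mrps symbols (median 0.017). All 3 members with a negative slope at an unadjusted p under 0.05 had Mrps symbols. Whether the subunits differ in slope was not tested.

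Markers of other cell types had mostly negative slopes, as did all genes (40.5% positive, median -0.020). The slope was positive for 0 of 8 trunk mesenchyme markers (median -0.082) and 1 of 8 hindgut markers (median -0.090). It was positive for 1 of 8 erythroid (median -0.10), 1 of 10 macrophage (median -0.048) and 2 of 8 endothelial markers (median -0.054). Median levels of these lists ran from 4.81 to 5.98, against 8.35 for the members and 5.61 for all genes. These counts are on deposited values. The part of these markers in the slopes of the members was not tested.

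The smallest p belonged to Mrpl32, whose maturation by a mitochondrial protease is a step of ribosome assembly in yeast and mouse. In order of somite number its log2 values were 7.24, 7.27, 7.51 and 7.64 in mutants. In WT they were 6.65 at 21 somites, 7.09 at 22, and 7.59 and 7.50 at 25. Within each group, embryos at later stages had higher values. The slope was 0.20 ± 0.043 per somite (SE), with an interval from 0.10 to 0.29 and a limma adjusted p of 0.323.

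Mrps28 had 9.65, 9.63, 9.53 and 9.73 in mutants in order of somite number, against 8.84 and 8.98 in the WT embryos of 21 and 22 somites and 9.68 and 9.57 in those of 25. The slope of 0.17 ± 0.047 (SE) came with nearly level mutant values. Mrpl41, a large-subunit protein found only in mitochondria, had a slope of 0.33 ± 0.098, and its second probe gave 0.12 ± 0.054. On the probe used, Mrpl41 was 8.22 in mutant 4, the youngest mutant, and 9.85 to 9.97 in the other mutants. In WT it was 9.08 and 9.45 at 21 and 22 somites and 10.01 and 10.23 at 25. Mrpl18, whose bacterial counterpart binds ribosomal RNA of the large subunit, had a slope of 0.18 ± 0.056, and of 0.12 without WT 1. Its highest value was 9.59 in WT 1, at 25 somites, and its lowest 8.54 in WT 3, at 22. The other positive slopes at an unadjusted p under 0.05 were those of Mrps5, Mrpl15, Mrpl16, Mrps7, Mrpl54 and Mrpl21, from 0.11 for Mrpl15 to 0.22 for Mrps7. For Mrps5 the second probe gave 0.074 ± 0.071, against 0.22 from the probe used.

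Among negative slopes, Mrps18c had the smallest p and a slope of -0.15 ± 0.045 per somite (SE), with a limma adjusted p of 0.428. It was 9.72 in the youngest mutant and 9.27 in the oldest, and 9.76 and 9.75 in the WT embryos of 21 and 22 somites, against 9.38 and 9.08 in those of 25. Its paralog Mrps18b had a slope of -0.14 ± 0.052, with 8.53 in the oldest mutant as the lowest value. Mrps18a had a slope of 0.18 ± 0.10, which was 0.083 without WT 3 and 0.40 without WT 4. Mrps23, found only in mitochondria, had a slope of -0.29 ± 0.11, with mutant values from 6.33 to 6.96 and WT values from 5.32 in WT 2 to 7.67 in WT 4. Without WT 2 its slope was -0.13, and without WT 4 it was -0.16. Mrps15 had a slope of -0.12 ± 0.057, and of -0.038 without WT 4.

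**Figure D5:**
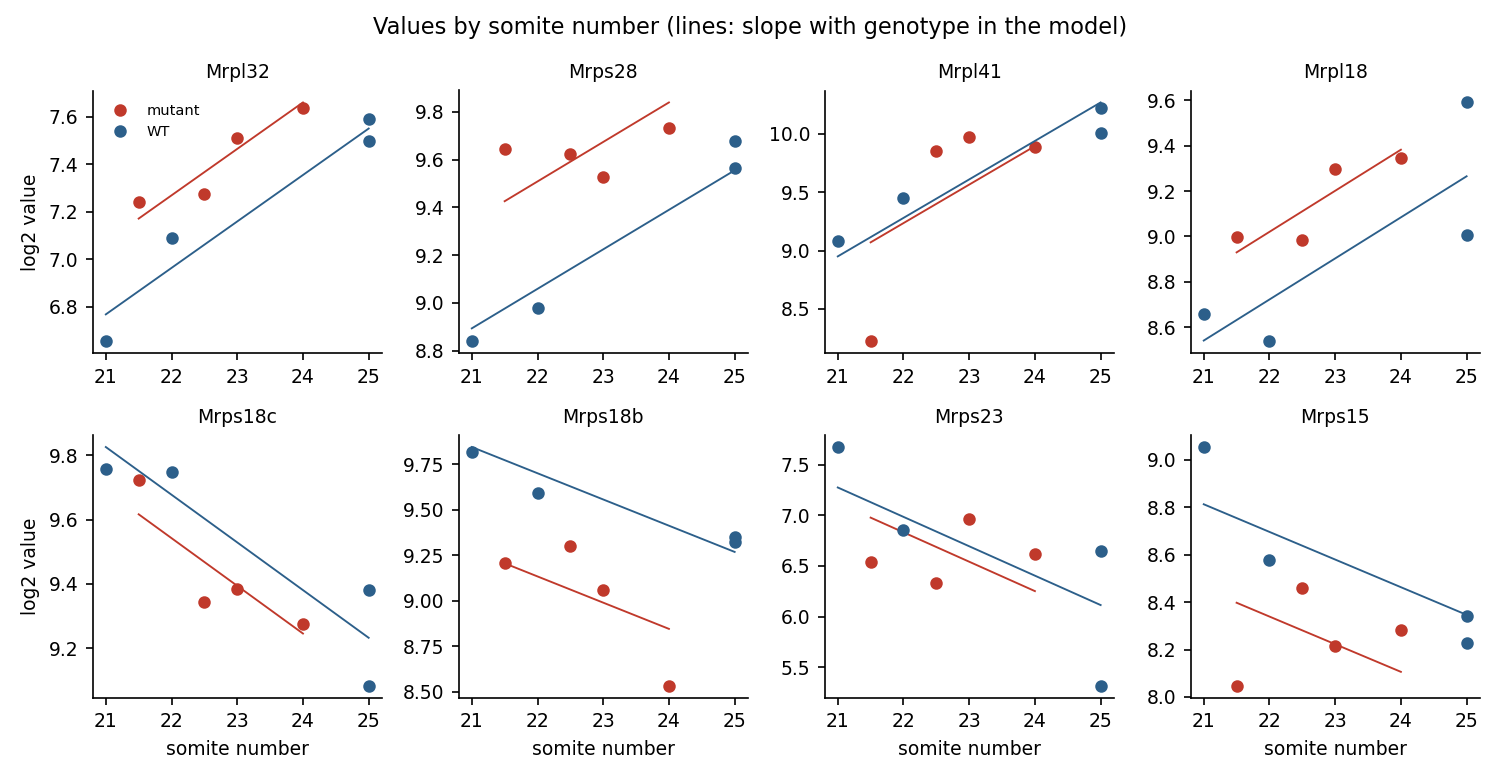
Log2 values of the 8 members named for their slopes, 4 per direction, against somite number (midpoint where the label gives a range), with the fitted slope drawn for mutants and WT. Mrpl32 is higher in later embryos of both groups (7.24 to 7.64 in mutants, 6.65 to 7.59 in WT), whereas mutants are nearly level for Mrps28 (9.53 to 9.73).

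Genes that serve the same ribosome were described from lists chosen by function. Of 4 measured subunits under other names, 1 was above 0 for mutant minus WT (median -0.033). Chchd1 and Dap3, both small-subunit proteins found only in mitochondria, differed by -0.21 ± 0.20 and -0.052 ± 0.17 (SE). On leaving out 1 array, Chchd1 ran from -0.38 without WT 3 to -0.091 without WT 2, and Dap3 from -0.15 without WT 4 to 0.074 without WT 1. Of 23 assembly factors, 10 were above 0 (median -0.024), with 2 higher and 2 lower in mutants by unadjusted p under 0.05 (all genes, 2.72% higher and 1.96% lower). Mrm2, which methylates the large ribosomal RNA, had 5.88, 6.02, 5.98 and 5.64 in mutants and 6.28, 5.99, 6.42 and 6.54 in WT, a difference of -0.43 ± 0.16. Mterf4, which brings an RNA methyltransferase to the large subunit, differed by 0.49 ± 0.19.

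Of 14 translation factors, 11 were above 0 (median 0.21), and all 14 had positive somite slopes (median 0.068). Over all genes 44.6% were above 0 and 40.5% had positive slopes. Over the 9969 genes above the median level these shares were 57.4% and 58.6%. Counts for these related lists are on deposited values, where those of the members moved with scaling. Mtfmt, which formylates the initiator transfer RNA, had 6.81, 6.92, 6.96 and 7.05 in mutants and 6.87, 6.60, 6.35 and 5.86 in WT. WT 1 alone reached the mutant range. The difference was 0.52 ± 0.20 (SE), and it was 0.33 without WT 4. Guf1, related to a bacterial elongation factor, differed by 0.37 ± 0.26, and by 0.12 without WT 3. Of 22 listed aminoacyl-tRNA synthetases and amidotransferase subunits, 17 were above 0 (median 0.14). By unadjusted p under 0.05, 3 were higher and 0 lower in mutants, against 2.72% of all genes higher and 1.96% lower. Among the 9969 genes above the median level these counts were 474 and 158. The list also holds Gars, Kars and Qars, which are not specific to mitochondria. Pars2, which charges the proline transfer RNA, had 5.86 to 6.50 in mutants and 5.33 to 5.67 in WT, without overlap. It differed by 0.52 ± 0.17, and Hars2, its counterpart for histidine, by 0.71 ± 0.29, or 0.39 without WT 4.

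Of 17 genes of mitochondrial DNA transcription, replication and their regulators, 9 were above 0 (median 0.037). Tefm, an elongation factor of mitochondrial transcription, differed by 0.70 ± 0.27 (SE), with 7.83 in mutant 4 and 6.13 in WT 4 as the extremes. Yy1 differed by 0.34 ± 0.16. The smallest limma adjusted p among the genes of these lists was 0.973.

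Beside related families, the genotype median of the members was 0.068 on deposited values. Complex I subunits had 28 of 34 differences above 0 with a median of 0.20. Of these 34 genes, 6 were higher in mutants and 0 lower by unadjusted p under 0.05, against 2.72% of all genes higher and 1.96% lower. Of the 9969 genes above the median level, 474 were higher and 158 lower. Without WT 3 only 2 complex I genes were higher (all 19938 genes, 441), and the complex I median was 0.13. After quantile normalization this median was 0.13, with 5 genes higher and 1 lower (all genes, 518 and 449). It was 0.13 with each array centred and scaled to a common SD, and 0.11 with the array SD as a covariate. Cytosolic ribosomal proteins had 47 of 59 differences above 0 with a median of 0.078. This median was 0.027 after quantile normalization and turned to -0.075 with each array centred and scaled to a common SD. These settings for both families were chosen after the data were seen. Somite slopes had medians of 0.052 for the members, 0.052 for complex I and 0.0041 for cytosolic ribosomal proteins. In all 3 families WT 3 had the lowest array mean, at 8.10 for the members, 8.95 for complex I and 11.30 for cytosolic ribosomal proteins. The differences between families were not tested.

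The mutants are homozygous around Ror2 on chromosome 13, so members near it would share the haplotype of the allele. Of the 77 members, 5 lie on this chromosome, and 0 lie within 10 Mb of Ror2.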

How the data were processed

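The deposited table gives 1 log2 value per probe and array. The log2 scale was inferred from the values. How the authors normalized these values was not given in the sources used here. Per the labels' protocols, sorted cells were lysed, RNA was isolated on micro columns, and it was amplified with the NuGEN Ovation FFPE WTA System and labelled with biotin. Of 35557 probes, 21789 had 1 gene symbol, 1621 several (not used to name genes) and 12147 none. The probe of highest mean represented each of 19938 genes, 999 of which had several probes.

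Values were used as deposited. The tests were run in R 4.3.3 with limma 3.58.1 (lmFit, eBayes, two-sided, Benjamini-Hochberg over all genes, threshold 0.05) for mutant minus WT and for the slope per somite with genotype in the model. Errors marked SE and the 95% intervals are limma's. Labels say that each array is a separate embryo. The scripts were tested on simulated data.

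The members, lists and alternatives were chosen with earlier results of these data known. Named were the 6 members per direction of smallest p for genotype, 4 per direction for the slope, Mrpl12, the Mrps18 genes, 2 genes of smallest p per related list, and 2 germ cell markers; members outside this rule were named for their probes or extremes after their values were seen. Promoter sequences are RefSeq's, and motif letters were settled after counts of shorter and longer forms were seen. No protein sequences were used here. The alternatives cover scaling, array spread, probe choice, variance model, array weights, replicate numbers, stage and left-out arrays.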

Additional observations from a re-analysis of the deposited data

Results flagged for a closer look

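Of 66 groups of 4 arrays examined for named genes and the member mean, 6 held an array far from the other 3 (Dixon's critical value at the 95% level). Chance gives about 1 in 20 such groups. Among all members, 12 of 154 groups held one. Mrpl41 was 8.22 in mutant 4, against 9.85 to 9.97 in the other mutants. Mrpl34 was 8.88 in mutant 1, against 8.43 to 8.49 in the other mutants. Mrps18a was 7.88 in WT 3, against 9.20 to 9.34 in the other WT arrays. Mrps10 was 6.68 in WT 2, against 6.90 to 6.93 in the other WT arrays. Guf1 was 7.04 in mutant 3, against 7.50 to 7.55 in the other mutants. Yy1 was 8.87 in WT 3, against 8.39 to 8.46 in the other WT arrays.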

How the results depend on the processing

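No member passed an adjusted p of 0.05 in any of the 19 alternatives for genotype (smallest 0.544) or the 21 for the slope (smallest 0.202). Leaving out 1 array at a time gave 38 to 48 members above 0 for genotype (median -0.0079 to 0.12) and 49 to 58 for the slope (median 0.034 to 0.078). At an unadjusted p under 0.05 there were 3 to 8 members for genotype and 9 to 14 for the slope. Of all 19938 genes there were 729 to 1715 for genotype and 1298 to 2318 for the slope. Mutant 3 (7) and WT 1 (8) gave the highest genotype counts when left out, and a somite covariate gave 7. Over all genes these 3 settings gave 732, 1715 and 1306, against 934 with all arrays and no covariate.

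The median slope was 0.0030 after quantile normalization, 0.081 after median centring and 0.0021 with the array SD as a covariate. In that last fit 5 members (all genes, 1076) had an unadjusted p under 0.05. Genes past the threshold for the slope, none of them a member, numbered 0 to 2 on leaving out 1 array (2 without WT 4, and 1 without WT 3, mutant 1 or mutant 4), 5 without WT 3 and mutant 4, and 1 at the upper end of the somite ranges. The gap between the highest and lowest array mean of the members was 0.37 as deposited and 0.14 after quantile normalization.

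Replicate numbers did not pair the embryos: same-numbered mutant and WT arrays correlated from -0.19 to 0.097 in their deviations. With the replicate block, 6 members (all genes, 891) had an unadjusted p under 0.05 for genotype. For the slope 2 members (all genes, 675) did, and 0 members passed in either fit. Genotype differences near 0 turned sign: Mrpl12 to -0.019 (quantile), -0.050 (array SD as covariate) and between -0.040 and 0.21 on leaving out 1 array, Mrps18c to 0.075 (array SD) and between -0.20 and 0.027, Dap3 between -0.15 and 0.074, and Pou5f1 to -0.010 (scaled by SD). The causes were not tested. No detection calls were used, so the lower limit of signal is unknown.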
